A study of Mus musculus with 15 samples.

Results

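Cholesterol and fatty acid synthesis was followed through 30 genes, chosen by name from the 24982 gene symbols of the deposited count tables. They comprise 18 enzymes of the sterol pathway, 8 genes of fatty acid synthesis, and 4 regulators and carriers that serve these pathways. All 30 were found and all had enough counts to be tested, as did 15696 genes in all. Polyadenylated RNA was sequenced in 15 libraries of E14TG2, a mouse embryonic stem cell (ESC) line, in 5 groups of 3. Atg7 KO cells and control cells were sampled on day 2 and on day 4 of the conversion to epiblast-like cells (EpiLCs), and ESCs with the control genotype were sampled on day 0. ESCs were grown with LIF, PD0325901, CHIR99021 and serum replacement on inactivated mouse embryonic fibroblasts, and all 5 groups stem from such cultures. EpiLCs, cells that resemble the epiblast near implantation, were induced on fibronectin in N2B27 medium with activin A, bFGF and serum replacement. The sources used here do not give how Atg7 was deleted or whether the KO cells are 1 clone, and Atg7 KO ESCs of day 0 were not analysed here. No label states that replicates were grown as separate cultures. The p-values therefore reflect the spread among the libraries at hand, and that spread may be technical.

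Cholesterol is made from acetyl-CoA through mevalonate, isoprenoid diphosphates and squalene to lanosterol, which is then trimmed and reduced in many steps. Fatty acids are made from the same acetyl-CoA, which carboxylation turns into the building block that fatty acid synthase joins into palmitate for elongation and desaturation. The genes of both pathways are known targets of SREBP transcription factors: when sterols are scarce, SCAP escorts the precursors encoded by Srebf1 and Srebf2 to the Golgi for cleavage, and when sterols are plentiful INSIG proteins hold them in the endoplasmic reticulum. In textbook accounts the product of Srebf2 acts mainly on sterol genes and the short form made from Srebf1 mainly on fatty acid genes. Lysosomes filled by autophagy, for which the enzyme encoded by Atg7 is needed, are a known source of recycled cholesterol and fatty acids.

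Library totals were between 14059237 and 23371546 counts. Levels are CPM, counts relative to the TMM-scaled size of the library, given per library in the order of replicates 1 to 3 or as mean ± SD (n = 3). Fold changes are log2 values ± SE from edgeR's quasi-likelihood test fitted to all 15 libraries, and a gene is said to be higher, lower, or to have risen or fallen only where its p, adjusted by the Benjamini-Hochberg method over 15696 genes, was under 0.05. Atg7 itself had 6.84, 7.53 and 7.11 CPM in KO cells and 14.6, 12.1 and 14 CPM in control cells on day 2, and 12.6, 12.7 and 10.4 CPM in KO cells and 19.1, 19.9 and 19.4 CPM in control cells on day 4, against 17.5, 18.7 and 16.6 CPM in ESCs. KO libraries were below all control libraries on either day (adjusted p = 8.34e-06 on day 2 and 8.39e-05 on day 4), and Atg7 reads remained. Of 7 markers of naive ESCs, 6 fell in control cells by day 2, while Zfp42 rose, and of 5 EpiLC markers 2 rose and 2 fell. Between day 2 and day 4 all 5 EpiLC markers rose in control cells, while 4 naive markers fell and 2 rose. Of all tested genes 34.9% fell and 35.6% rose by day 2, and 34.6% fell and 33.9% rose between day 2 and day 4. Fgf5, a defining EpiLC marker, was at most 1.66 ± 0.387 CPM in any group and 0.64 ± 0.308 CPM in day 4 control cells. Of 5 markers of primitive endoderm, 4 were higher in control cells on day 2 than in ESCs, and all 5 on day 4. Of all tested genes 35.6% and 36.2% were higher in these comparisons. Gata6 had 3.71 ± 2.2 CPM in ESCs and 84.7 ± 8.99 CPM in day 2 control cells. Dab2 had 10.1 ± 4.32 CPM in ESCs and 160 ± 37.6 CPM in day 4 control cells. KO and control cells also differed in these markers. For comparison, 20.4% of all tested genes were higher and 21.4% lower in KO cells on day 2. On day 4 the shares were 19.5% and 18.1%. Of the 7 naive markers, 3 were higher and 0 lower in KO cells on day 2 (median log2 fold change 0.2). On day 4, 6 were higher and 0 lower (median 0.72). Of the 5 EpiLC markers, 1 was higher and 3 lower in KO cells on day 2, and 2 were higher and 2 lower on day 4. The part of these differences in the values of the sterol and fatty acid genes was not tested. RNA of fibroblast type was present in all libraries: the summed level of 12 markers was 491.2 to 871.7 CPM in day 2 KO and 295.4 to 332.2 CPM in day 2 control libraries, 143.4 to 186.3 CPM in day 4 KO and 93.45 to 104.1 CPM in day 4 control libraries, and 255.3 to 1936 CPM in ESC libraries. None of the 12 was at 0 in any library. They did not all move together: in control cells 7 fell and 2 rose by day 2. Thy1 had 5.19 ± 3.43 CPM in ESCs and 14.4 ± 0.554 CPM in day 2 control cells, and Twist1 3.17 ± 1.88 and 11.2 ± 1.55 CPM. Col1a1 had 292 ± 210 and 85.8 ± 5.93 CPM in the same groups. A score of the 3 collagen genes Col1a1, Col1a2 and Col3a1 was used as a covariate in an alternative fit, whose counts are given beside those of the sterol enzymes and the fatty acid genes. The score covers these 3 genes and not the whole list of 12. ESC replicate 3 and KO day 2 replicate 2 had the lowest and the highest such score of their groups. In bulk RNA, fewer cells of a type and less RNA per cell cannot be told apart.

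The promoters of these genes were searched for 3 short motifs. For 24 of the 30 genes the RefSeq promoter table of GRCm38.p6 held a sequence, 29 windows in all, of which the 250 bases before the start were used. Fdft1, Fdps, Scd1, Scd2, Sqle and Stard4 had no entry. The CCAAT box, with the letters CCAAT on either strand and known as the site of the factor NF-Y, occurred in 20 of 24 genes (83.3%), against 37.5% of 27025 genes in the table. It was present in 14 of 15 sterol enzymes, 3 of 6 fatty acid genes and 3 of 3 regulators, and Acat2, Acly, Acaca and Elovl6 had none. The Acaca window (chr11:84195188-84195437) lies inside the gene, which starts at 84129672 in GENCODE M21. The Tm7sf2 window, which holds a CCAAT box, also lies inside its gene. For these genes no bases before the GENCODE start were searched. The letters TCACCCCA on either strand, the core of a sterol regulatory element, occurred in Hmgcs1 at positions -137 to -130 and in Srebf2 at positions -162 to -155 relative to the RefSeq start, which made 2 of 24 genes (8.33%) against 1.54% of all genes. Those letters were chosen after the sequences had been seen. The E-box CACGTG, which reads the same on both strands and can be bound by SREBPs as well as by other factors, occurred in 4 of 24 genes (16.7%), namely Hsd17b7, Sc5d, Dhcr7 and Insig1, against 6.86% of all genes. The Dhcr7 windows that hold its E-box and its CCAAT boxes lie inside the gene as GENCODE M21 annotates it. A match is a description of letters and not a measured binding site. Shown are 6 genes whose levels the results turn on, 5′ to 3′ on the gene's own strand in GRCm38.p6 and without bases that GENCODE M21 annotates as transcribed, with matches in capitals: Hmgcs1 and Srebf2 with the sterol element core, Insig1 with an E-box, Lss and Fasn with CCAAT boxes, and Elovl6 with no match.
Hmgcs1 (chr13:119690101-119690350, plus strand): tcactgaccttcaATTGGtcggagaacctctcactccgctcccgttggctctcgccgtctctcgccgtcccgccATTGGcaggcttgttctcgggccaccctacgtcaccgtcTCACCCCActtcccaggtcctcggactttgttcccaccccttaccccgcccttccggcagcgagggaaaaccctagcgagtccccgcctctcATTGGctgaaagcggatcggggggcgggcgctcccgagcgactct
Srebf2 (chr15:82147019-82147180, plus strand): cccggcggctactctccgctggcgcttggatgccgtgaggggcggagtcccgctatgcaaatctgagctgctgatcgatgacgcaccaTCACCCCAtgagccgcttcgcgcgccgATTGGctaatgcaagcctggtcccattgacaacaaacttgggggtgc
Insig1 (chr5:28071162-28071362, plus strand): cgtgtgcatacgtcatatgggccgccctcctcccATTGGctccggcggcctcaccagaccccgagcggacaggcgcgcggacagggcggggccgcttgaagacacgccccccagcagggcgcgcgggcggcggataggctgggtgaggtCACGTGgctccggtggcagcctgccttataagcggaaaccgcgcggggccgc
Lss (chr10:76531355-76531587, plus strand): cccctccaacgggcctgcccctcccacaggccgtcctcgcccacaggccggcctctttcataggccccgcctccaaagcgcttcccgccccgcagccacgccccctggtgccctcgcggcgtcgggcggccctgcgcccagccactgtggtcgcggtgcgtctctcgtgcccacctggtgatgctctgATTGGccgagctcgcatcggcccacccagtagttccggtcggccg
Fasn (chr11:120824548-120824797, minus strand): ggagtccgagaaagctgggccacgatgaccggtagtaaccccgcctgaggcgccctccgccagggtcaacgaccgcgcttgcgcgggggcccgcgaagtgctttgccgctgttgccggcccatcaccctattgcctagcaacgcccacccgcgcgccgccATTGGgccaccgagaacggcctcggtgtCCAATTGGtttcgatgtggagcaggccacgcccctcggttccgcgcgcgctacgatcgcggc
Elovl6 (chr3:129532136-129532354, plus strand): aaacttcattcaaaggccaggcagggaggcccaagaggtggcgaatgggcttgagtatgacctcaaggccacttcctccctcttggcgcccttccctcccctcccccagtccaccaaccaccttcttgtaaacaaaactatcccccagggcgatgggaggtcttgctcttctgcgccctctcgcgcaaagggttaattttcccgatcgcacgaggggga
In Fasn the run CCAATTGG holds 2 overlapping CCAAT boxes, 1 on each strand. The matches of all 24 genes are drawn in the map of motif positions.

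**Figure D1:**
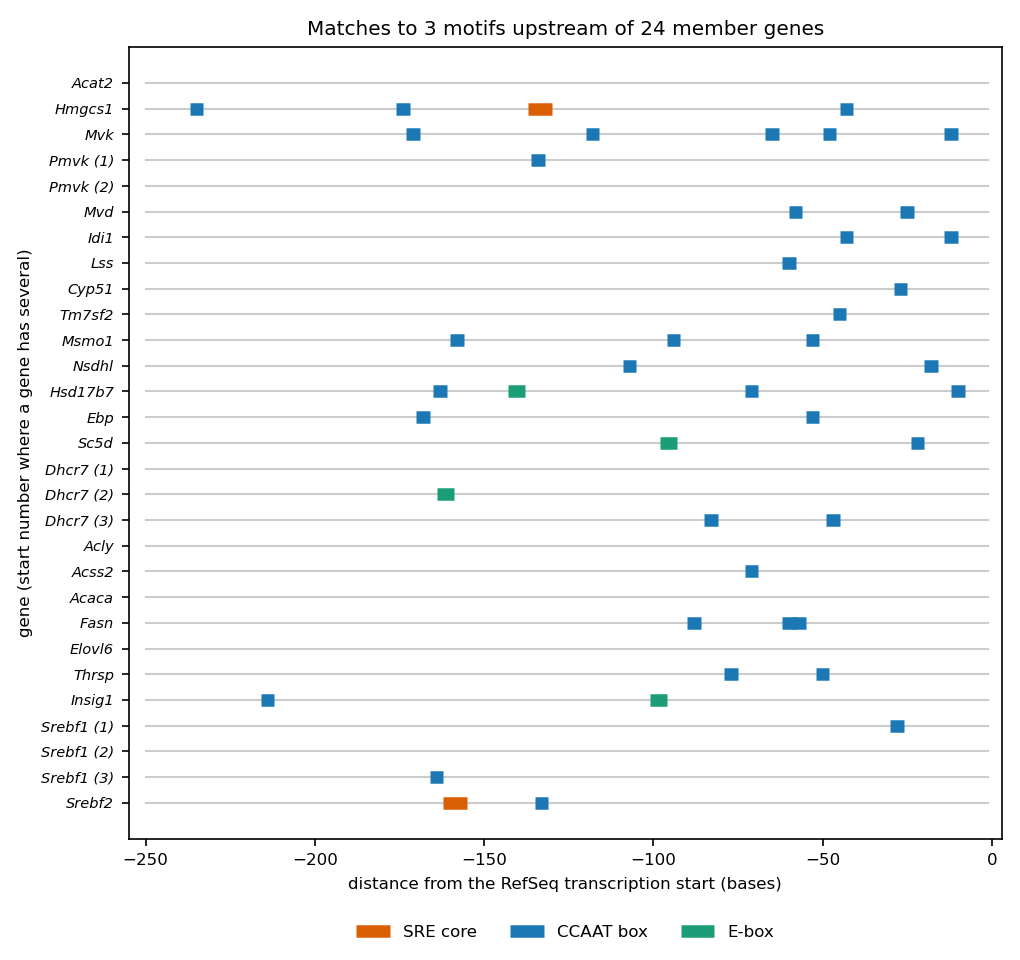
Positions of matches to the CCAAT box, the sterol element core and the E-box in the 250 bases before the RefSeq starts of 24 genes; the x axis is the distance from the start in bases, each line is 1 start, and a number in brackets marks the starts of a gene with several. CCAAT boxes are spread over 20 genes, while the sterol element core appears in Hmgcs1 and Srebf2 alone of these.

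In control cells the sterol enzymes were mostly higher on day 2 than in ESCs and nearly all lower on day 4 than on day 2. Of the 18 enzymes, 12 rose and 3 fell by day 2, with a median log2 fold change of 0.42 against 0.02 over all genes tested. Of all tested genes 70.5% were called, 35.6% as higher and 34.9% as lower. From day 2 to day 4, 17 of the 18 fell and 0 rose, as with DESeq2 or at an unadjusted p under 0.05, with a median of -1.1 against -0.01 over all genes, where 68.4% of all genes were called, 34.6% as lower and 33.9% as higher. These 2 comparisons share the day 2 control libraries, so a high day 2 level enters both. Measured from ESCs to day 4, 15 of 18 were lower and 2, Hsd17b7 and Sc5d, were higher (median -0.47, where 71.7% of all genes were called, 35.6% as lower and 36.2% as higher). With the collagen score as a covariate, 11 rose and 3 fell by day 2, 16 fell between day 2 and day 4, and 10 were lower and 0 higher on day 4 than in ESCs.

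The enzyme at the entry of the mevalonate route, Hmgcs1 (chr13:119690379-119708260, plus strand in GRCm38), had 204, 202 and 270 CPM in ESCs, 398, 431 and 396 CPM in day 2 control cells and 205, 199 and 205 CPM in day 4 control cells. The day 2 libraries stood above all others, and the day 4 libraries lay at the low end of the ESC levels, replicate 2 below all 3. Its log2 fold change was 0.86 ± 0.0863 for day 2 against ESCs and -1.01 ± 0.0866 for day 4 against day 2 (adjusted p = 1.99e-07 and 3.32e-08), while day 4 against ESCs gave -0.15 ± 0.0866 (adjusted p = 0.126). Dhcr7, a reductase of the last steps, had 64.1, 62.5 and 63.4 CPM in ESCs, 178, 189 and 169 CPM in day 2 control cells and 49.1, 47 and 53.4 CPM in day 4 control cells. It showed the same sequence of levels with a wider swing, 1.5 ± 0.0603 and then -1.84 ± 0.0612 (adjusted p = 5.65e-12 and 3.28e-12). Hsd17b7, a sterol keto reductase, rose most of the 18 by day 2 (1.68 ± 0.0972, adjusted p = 2.89e-10). It stood at 19.5 ± 3.1 CPM in ESCs, 62.6 ± 3.57 CPM on day 2 and 29 ± 2.65 CPM on day 4, so that it remained above ESCs on day 4 (0.57 ± 0.1), though not with the collagen score as a covariate (0.08).

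From squalene synthase onward 9 of 11 enzymes rose by day 2, and of the 7 before it 3 rose, a division made after the values were seen and without a test. Fdft1 (squalene synthase), Sqle (squalene epoxidase), Lss (lanosterol synthase), Cyp51 (lanosterol demethylase) and Msmo1 (methylsterol monooxygenase) all rose, with log2 fold changes between 0.41 and 1.00, and Nsdhl (a sterol dehydrogenase) and Sc5d (a sterol desaturase) by 0.31 and 0.83. The 605 tested genes of the X chromosome, where Nsdhl lies, had a median of 0.38 by day 2, and 50.9% were higher. The part of that shift in the value of Nsdhl was not tested. Among the mevalonate and isoprenoid steps, Mvd (the decarboxylase) and Fdps (farnesyl diphosphate synthase) rose by 0.20 and 0.44. Mvk and Pmvk, the 2 kinases that act in turn on mevalonate, fell instead by day 2 (-0.31 ± 0.105 and -0.48 ± 0.101), and Acat2 (acetoacetyl-CoA thiolase) and Idi1 (the isomerase) gave 0.04 and -0.06 without passing the test. Tm7sf2, a sterol reductase, fell at each step and had 29.9, 26.1 and 24.9 CPM in ESCs, 16.2, 18.2 and 15.4 CPM in day 2 control cells and 3.49, 4.14 and 5.65 CPM in day 4 control cells. Its groups did not overlap. Pmvk fell similarly, to 11.2 ± 1.59 CPM on day 4 against 47.6 ± 4.8 CPM in ESCs (-2.09 ± 0.111, adjusted p = 6.7e-11). Ebp, a sterol isomerase, was the sole enzyme that did not pass between day 2 and day 4 (-0.23 ± 0.129, adjusted p = 0.118), and with the collagen score as a covariate its value was 0.21. Leaving out ESC replicate 3 or day 2 control replicate 3 ended the call of Mvk by day 2, leaving out ESC replicate 1 ended that of Nsdhl, and leaving out replicate 1 or 2 of either group ended that of Mvd. The call of Mvd was also lost with DESeq2, with RLE factors and with the replicate number as a block. It was lost as well with the collagen score as a covariate and in a fit of only the groups compared.

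The fatty acid genes split by day 2. Of the 8, 4 rose and 2 fell, with a median of 0.17, against the same shares of all genes as for the sterol enzymes. Acss2, the cytosolic acetyl-CoA synthetase, had 14.2, 14.8 and 14.2 CPM in ESCs, 42.2, 42.8 and 41.8 CPM in day 2 control cells and 23, 21.5 and 23.3 CPM in day 4 control cells, and its day 4 libraries were still above every ESC library (1.56 ± 0.0685 by day 2 and 0.65 ± 0.0705 by day 4 against ESCs). Scd2, a stearoyl-CoA desaturase, rose by 1.09 and Acly, the ATP citrate lyase that makes cytosolic acetyl-CoA, by 0.25. Thrsp, a small protein linked to lipogenesis in liver, rose by 0.98, but on at most 4.79 ± 0.576 CPM in control cells. Its value was 1.5 without ESC replicate 3 and, with the collagen score as a covariate, 0.51 and not called, so that 3 fatty acid genes rose and 2 fell in that fit. Fasn (chr11:120805846-120824547, minus strand), fatty acid synthase, had 452, 422 and 377 CPM in ESCs, 297, 284 and 307 CPM in day 2 control cells and 177, 175 and 143 CPM in day 4 control cells. It fell at each step without overlap (-0.49 ± 0.0764 and -0.84 ± 0.0775, adjusted p = 2.37e-05 and 7.36e-08). Elovl6, which extends palmitate, had 314, 320 and 414 CPM in ESCs, 202, 189 and 212 CPM in day 2 control cells and 251, 241 and 224 CPM in day 4 control cells, the reverse order of most members between day 2 and day 4.

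From day 2 to day 4, 7 of the 8 fatty acid genes fell in control cells and Elovl6 rose (0.25 ± 0.084, adjusted p = 0.0159), with a list median of -0.87. Over the same days 34.6% of all tested genes fell and 33.9% rose. The call of Elovl6 was lost without day 2 control replicate 2 or day 4 control replicate 1, and its value was -0.08 with the collagen score as a covariate. In that fit the fall of Acaca was not called either (-0.22), which left 6 lower and 0 higher. Against ESCs, 7 of the 8 were lower on day 4 and Acss2 was higher (median -0.56), or 6 lower and 1 higher with the collagen score as a covariate, where Acaca was at -0.02. In the main fit 35.6% of all tested genes were lower and 36.2% higher in day 4 control cells than in ESCs. Acaca, acetyl-CoA carboxylase, moved least, with 92, 90.3 and 81 CPM in ESCs, 92.1, 95.9 and 93.5 CPM in day 2 control cells and 79.8, 76.2 and 66.7 CPM in day 4 control cells. All 4 regulators and carriers fell from day 2 to day 4, as did 34.6% of all tested genes. Insig1 had 93.4, 95.7 and 102 CPM in ESCs, 228, 236 and 218 CPM in day 2 control cells and 43.5, 57.8 and 50.5 CPM in day 4 control cells, a rise (1.23 ± 0.078) and then a fall (-2.17 ± 0.0813) that among the 30 was exceeded by that of Thrsp alone. Srebf2 (chr15:82147181-82205379, plus strand) had 375, 397 and 489 CPM in ESCs, 424, 428 and 437 CPM in day 2 control cells and 128, 133 and 118 CPM in day 4 control cells. Its transcript did not pass the test by day 2 (0.03 ± 0.0771, adjusted p = 0.724) and fell by day 4 (-1.77 ± 0.0804, adjusted p = 3.71e-11), while Srebf1 rose by day 2 (0.54) and fell by day 4 (-1.12). Once the collagen score was a covariate, the rise of Srebf1 by day 2 was not called (0.24) and Srebf2 was lower (-0.22), whereas without ESC replicate 3 Srebf2 was higher (0.16). Stard4, a carrier of cholesterol between membranes, had 40 ± 7.94 CPM in ESCs, 134 ± 2.98 CPM on day 2 and 108 ± 5.97 CPM on day 4 in control cells. These courses are drawn by library in the heat map of all 30 genes.

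**Figure D2:**
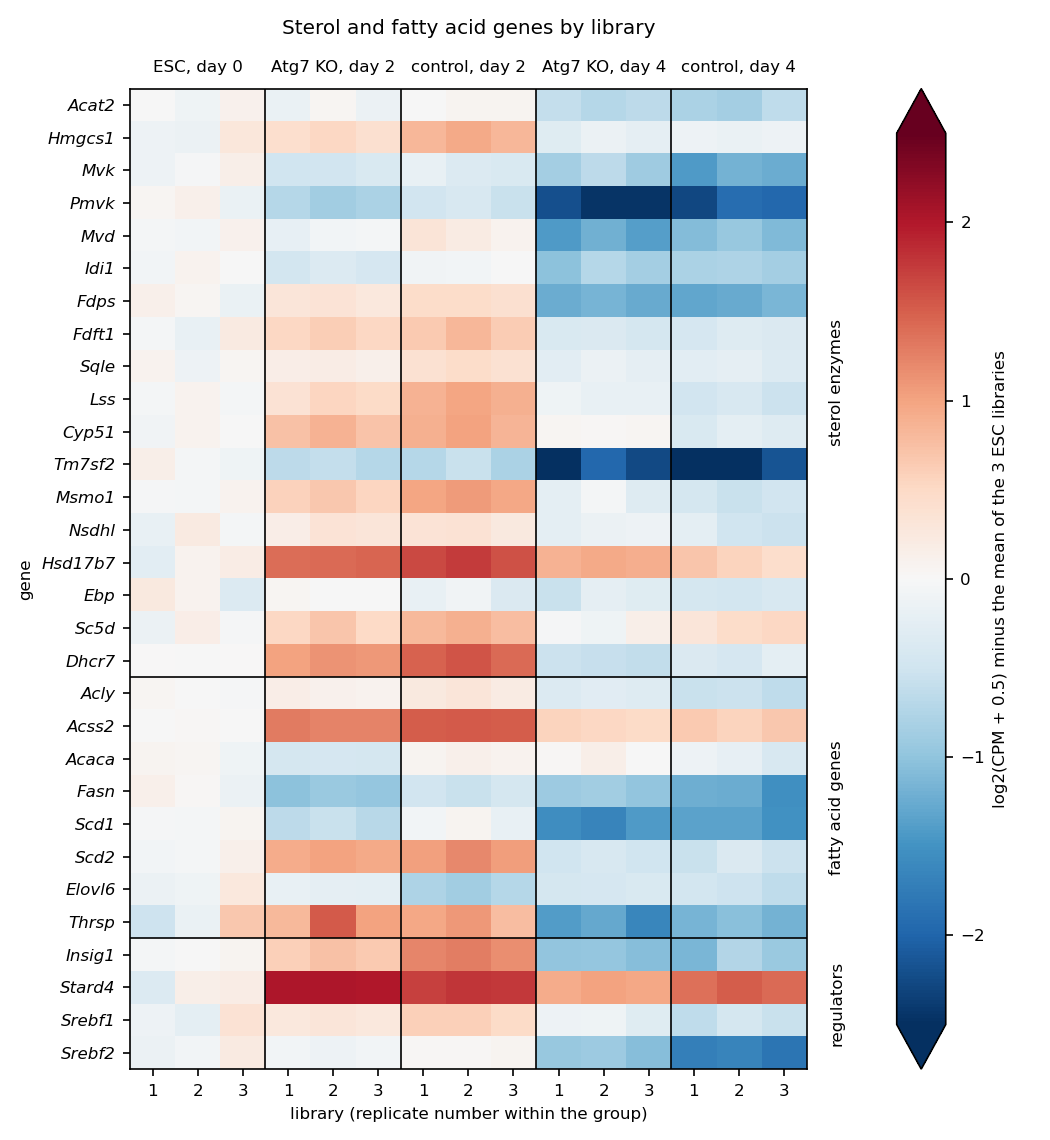
Levels of the 30 genes in each of the 15 libraries, coloured by log2(CPM + 0.5) minus the mean of the 3 ESC libraries; rows are genes in pathway order, columns are libraries, and values beyond the ends of the colour scale take its end colours. Most sterol enzymes are red on day 2 and blue on day 4, with a paler red in the day 2 KO columns than in the day 2 control columns.

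On day 2, sterol enzymes were lower in Atg7 KO than in control cells. Of the 18, 10 were lower and 0 higher (41.8% of all tested genes were called, 21.4% lower and 20.4% higher). DESeq2 called the same numbers, 10 and 0, and at an unadjusted p under 0.05 the count of higher enzymes was 0 as well. Ebp was the sole enzyme called higher in any alternative, in a fit of only the groups compared and in the fit without ESC replicate 3. The list median was -0.25 against -0.01 over all genes, and 16 of the 18 estimates were below 0. For 12 enzymes all KO libraries were below all control libraries, as was so for 31.7% of all tested genes. The 10 were Hmgcs1, Pmvk, Mvd, Idi1, Sqle, Lss, Msmo1, Hsd17b7, Sc5d and Dhcr7, so that mevalonate, squalene and late steps were all among them. The shifts were small, between -0.46 and -0.24, and none of the 30 genes passed a test against a 1.5-fold change, which 5.4% of all tested genes did.

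Lss (chr10:76531588-76557138, plus strand), which closes squalene epoxide into lanosterol, had 57.8, 65 and 63 CPM in KO cells, against 82.8, 89.5 and 83.1 CPM in control cells on day 2. All KO libraries lay below all control libraries and above the ESC range of 43.5, 47.8 and 43.3 CPM. Its log2 fold change was -0.46 ± 0.0643 (adjusted p = 4.24e-05), or 1.37-fold lower. Hmgcs1 had 300, 318 and 294 CPM in KO cells, against 398, 431 and 396 CPM in control cells, again without overlap (-0.43 ± 0.0853, adjusted p = 0.000902). Msmo1 had 99.1, 106 and 97.1 CPM in KO cells, against 132, 139 and 130 CPM in control cells (-0.41 ± 0.0681, adjusted p = 0.000202). Dhcr7 had 127, 139 and 135 CPM in KO cells, against 178, 189 and 169 CPM in control cells (-0.42 ± 0.0577, adjusted p = 3.62e-05). In these 4 genes the KO libraries stood between the ESC and the day 2 control libraries.

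The 8 sterol enzymes that did not pass on day 2 were Acat2, Mvk, Fdps, Fdft1, Cyp51, Tm7sf2, Nsdhl and Ebp. Acat2, Mvk, Fdps, Fdft1 and Cyp51 had estimates between -0.16 and -0.14. Tm7sf2 and Nsdhl were closest to 0 (0.03 ± 0.15 and -0.05 ± 0.102, with 95% intervals of -0.27 to 0.32 and -0.25 to 0.15), and Ebp was at 0.22 ± 0.125. The calls of Pmvk, Hsd17b7 and Sc5d were lost in 4, 5 and 5 of the 6 refits that left out 1 KO or control library of day 2, and that of Mvd without control replicate 1, so the count of lower enzymes was between 6 and 13 over all refits without 1 library, with 6 in the fit without control replicate 1. Fibroblast markers were higher in the same KO libraries: 5 of 12 rose and none fell, with a median log2 fold change of 1.23. For comparison, 20.4% of all tested genes were higher and 21.4% lower. With the collagen score as a covariate 10 of the 18 enzymes were lower, with Fdps (-0.27) among them and Hsd17b7 (-0.10) no longer called, and without ESC replicate 3 and KO replicate 2 together 14 were.

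Most fatty acid genes were also lower in KO cells on day 2. Of the 8, 5 were lower (Acly, Acss2, Acaca, Fasn and Scd1) and 1, Elovl6, was higher, where 21.4% of all tested genes were lower and 20.4% higher, and the list median was -0.2. Fasn had 205, 218 and 213 CPM in KO cells, against 297, 284 and 307 CPM in control cells, and its KO libraries were below every control library and below every ESC library (452, 422 and 377 CPM). Its log2 fold change was -0.48 ± 0.0765 (adjusted p = 0.000126). Acaca had 64.8, 65.8 and 64.4 CPM in KO cells, against 92.1, 95.9 and 93.5 CPM in control cells (-0.53 ± 0.0686, adjusted p = 2.07e-05). Scd1, a stearoyl-CoA desaturase, had 43.9, 47.2 and 43.1 CPM in KO cells, against 66.3, 72.6 and 61 CPM in control cells (-0.58 ± 0.079, adjusted p = 3.5e-05). For Acaca and Scd1 the KO libraries of day 2 lay below all day 2 control and all ESC libraries. Scd2, a desaturase that shares a short part of its sequence with Scd1, was at -0.14 ± 0.0658 without passing the test.

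Elovl6 (chr3:129532355-129638495, plus strand) went the other way, with 304, 295 and 291 CPM in KO cells, against 202, 189 and 212 CPM in control cells. The KO libraries were all above the control libraries and just below the ESC range of 314, 320 and 414 CPM (0.56 ± 0.0837, adjusted p = 7.43e-05). Thrsp was at 0.23 ± 0.268 (adjusted p = 0.524). With the collagen score as a covariate, 5 fatty acid genes were again lower and 1 higher. The call of Acly, the smallest shift (-0.13 ± 0.045, adjusted p = 0.0273), was lost in 4 of the 6 refits without 1 library of day 2.

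Among the regulators on day 2, Insig1 was lower in KO cells with 146, 161 and 153 CPM, against 228, 236 and 218 CPM in control cells, without overlap (-0.57 ± 0.0759, adjusted p = 2.79e-05). Srebf1 had 99.2, 102 and 100 CPM in KO cells, against 125, 126 and 116 CPM in control cells (-0.29 ± 0.109, adjusted p = 0.045), and its call was lost in each of the 6 refits without 1 library of day 2 and with the collagen score as a covariate (-0.07). Srebf2 was at -0.13 ± 0.077 (adjusted p = 0.19), with 0.05 when the collagen score was a covariate. Stard4 had 161, 162 and 160 CPM in KO cells, against 131, 137 and 135 CPM in control cells (0.26 ± 0.0909, adjusted p = 0.0288), a call that was likewise lost in each of the 6 refits. It lies on chromosome 18, at 33199355 to 33213862 on the minus strand in GRCm38, and the 401 tested genes of that chromosome had a median log2 fold change of 0.56 on day 2, 0.01 on day 4 and -0.59 for the difference between the days. The part of that chromosome-wide shift in the value of Stard4 was not tested.

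On day 4 the sterol enzymes no longer leaned one way. Of the 18, 5 were higher in KO cells and 4 lower (37.6% of all tested genes were called, 19.5% higher and 18.1% lower), with a median of 0.08. Mvk, Lss, Cyp51, Msmo1 and Hsd17b7 were higher, and Pmvk, Mvd, Sc5d and Dhcr7 were lower on both days. Lss had 41.4, 39.1 and 39.5 CPM in KO cells, against 32.2, 33.7 and 30.7 CPM in control cells (0.31 ± 0.0691, adjusted p = 0.00208). Cyp51 had 105, 104 and 105 CPM in KO cells, against 78.7, 85.9 and 81.2 CPM in control cells (0.36 ± 0.0614, adjusted p = 0.000278). Mvk had 13.4, 15.5 and 13 CPM in KO cells, against 8.84, 10.6 and 10.1 CPM in control cells (0.51 ± 0.114, adjusted p = 0.0023). In all 3 the KO libraries lay above the control libraries, the reverse of the order of Lss on day 2.

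Sc5d, the desaturase near the end of the pathway, had 20.4, 19.5 and 23.2 CPM in KO cells, against 25.8, 29.1 and 30 CPM in control cells (-0.43 ± 0.0989, adjusted p = 0.00283). Dhcr7 had 43.2, 42.2 and 41.4 CPM in KO cells, against 49.1, 47 and 53.4 CPM in control cells (-0.24 ± 0.0628, adjusted p = 0.00672), and its groups did not overlap. Hmgcs1 no longer differed beyond its error, with 181, 201 and 192 CPM in KO cells, against 205, 199 and 205 CPM in control cells (-0.08 ± 0.0867, 95% interval -0.25 to 0.09). The call of Pmvk, whose groups overlapped, was lost in 4 of the 6 refits without 1 library of day 4, that of Mvd in 3, and that of Hsd17b7 without control replicate 3, and the count of lower enzymes was 2 without control replicate 2 or KO replicate 3. Of the 12 fibroblast markers 1, Col1a1, was higher in KO cells on day 4 (median over the list 1.26), while 3 of the 12 estimates were below 0. With the collagen score as a covariate 5 enzymes were higher and 3 lower. Of the 7 naive markers 6 were higher and 0 lower in KO cells on day 4 (median 0.72), against 19.5% and 18.1% of all tested genes. The part of that difference in the values of the enzymes was not tested.

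Of the 8 fatty acid genes 3 were higher in KO cells on day 4, Acly, Acaca and Fasn, and none was lower (median 0.07). Of all tested genes 37.6% were called on that day, 19.5% as higher and 18.1% as lower. In the fit with the collagen score 4 were higher, Elovl6 being added at 0.32, and 0 lower. DESeq2 called 3 higher and 0 lower, and no fatty acid gene was lower at an unadjusted p under 0.05. Fasn had 220, 228 and 211 CPM in KO cells, against 177, 175 and 143 CPM in control cells (0.41 ± 0.0776, adjusted p = 0.000561). Acaca had 89.6, 96.7 and 87.1 CPM in KO cells, against 79.8, 76.2 and 66.7 CPM in control cells (0.30 ± 0.0693, adjusted p = 0.00305), and Acly had 413, 432 and 420 CPM, against 356, 359 and 335 CPM (0.27 ± 0.0455, adjusted p = 0.000234). All 3 were lower in KO cells on day 2 and are consecutive steps from citrate to palmitate. Scd1, Scd2 and Elovl6 were at -0.15 ± 0.087, 0.02 ± 0.0669 and 0.13 ± 0.0839, none past the test. Both SREBP genes were higher in KO cells: Srebf2 with 217, 221 and 200 CPM in KO cells, against 128, 133 and 118 CPM in control cells (0.75 ± 0.0794, adjusted p = 3.31e-06), and Srebf1 with 76, 76.7 and 66.7 CPM in KO cells, against 52.9, 60.8 and 56.1 CPM in control cells (0.37 ± 0.114, adjusted p = 0.0169). The shift of Srebf2 was the largest of the 30 genes on day 4, or 1.68-fold, while the call of Srebf1 was lost in 3 of the 6 refits. Insig1 was at -0.07 ± 0.0825 (adjusted p = 0.522), and Stard4 was lower with 75.7, 80 and 78 CPM in KO cells, against 103, 114 and 106 CPM in control cells (-0.46 ± 0.0939, adjusted p = 0.00102). None of the 30 passed a test against a 1.5-fold change on day 4, which 3.91% of all genes did.

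**Figure D3:**
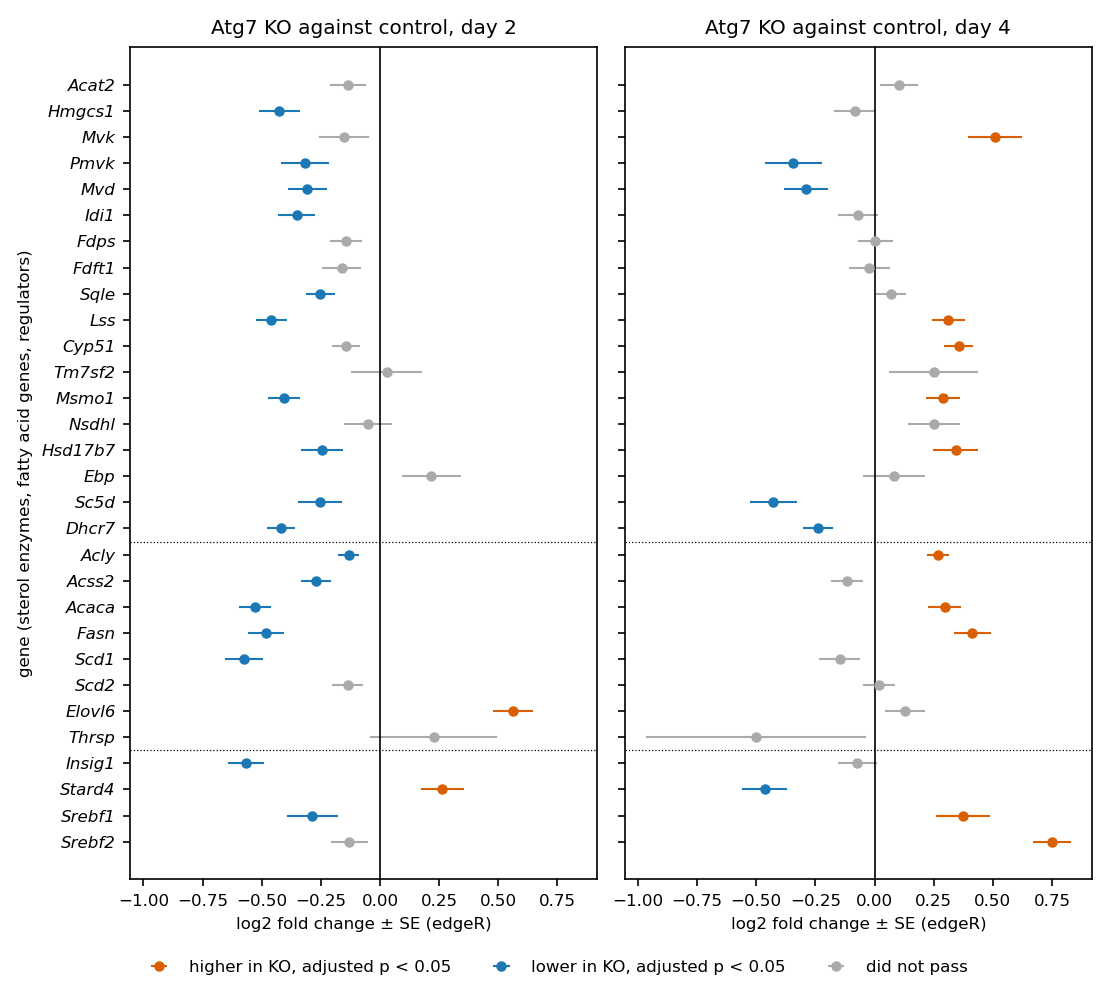
Log2 fold change of Atg7 KO against control cells on day 2 (left) and day 4 (right) for the 30 genes, as points with SE bars from the edgeR fit; orange points are higher and blue points lower in KO cells at an adjusted p under 0.05, and grey points did not pass. On day 2 most points lie left of 0, and on day 4 they lie on both sides, with Srebf2 farthest to the right at 0.75.

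The change of the KO effect between the days was tested directly, as day 4 minus day 2, from 12 libraries of 4 groups. Of the 30 genes 14 had a higher KO effect on day 4 and 2 a lower one (36.1% of all tested genes were called, 18.6% higher and 17.6% lower). Of the 18 sterol enzymes, 7 were in the higher group (Hmgcs1, Mvk, Sqle, Lss, Cyp51, Msmo1 and Hsd17b7) and 0 in the lower one, also with DESeq2 or at an unadjusted p under 0.05. Of the 8 fatty acid genes, 4 were in the higher group (Acly, Acaca, Fasn and Scd1) and 1, Elovl6, in the lower one. The same test gave 3 of 4 regulators as higher (Insig1, Srebf1 and Srebf2) and Stard4 as lower. Fasn had the widest difference at 0.90 ± 0.109 (adjusted p = 1.59e-05), followed by Srebf2 at 0.88 ± 0.111 (adjusted p = 2.11e-05), Acaca at 0.83 ± 0.0975 (adjusted p = 1.23e-05) and Lss at 0.77 ± 0.0944 (adjusted p = 1.71e-05). Fasn and Srebf2 also passed the test of this difference against 1.5-fold, as did 5.39% of all genes.

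Pmvk, Mvd, Sc5d and Dhcr7 were lower in KO cells on both days, and their differences between the days were -0.02 ± 0.157, 0.02 ± 0.127, -0.17 ± 0.136 and 0.18 ± 0.0852, none past the test. Their unadjusted 95% intervals were -0.33 to 0.28 for Pmvk, -0.23 to 0.27 for Mvd, -0.44 to 0.09 for Sc5d and 0.01 to 0.35 for Dhcr7. The call of Hmgcs1 (0.34 ± 0.122, adjusted p = 0.0375) was lost in 9 of the 12 refits without 1 library. With the collagen score as a covariate the counts were again 7 sterol enzymes higher, 4 fatty acid genes higher and 1 lower. Cyp51 had a difference of 0.50 ± 0.0852 (adjusted p = 0.000294) although it passed only on day 4, and Scd1 one of 0.43 ± 0.117 (adjusted p = 0.00956) although it passed only on day 2.

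**Figure D4:**
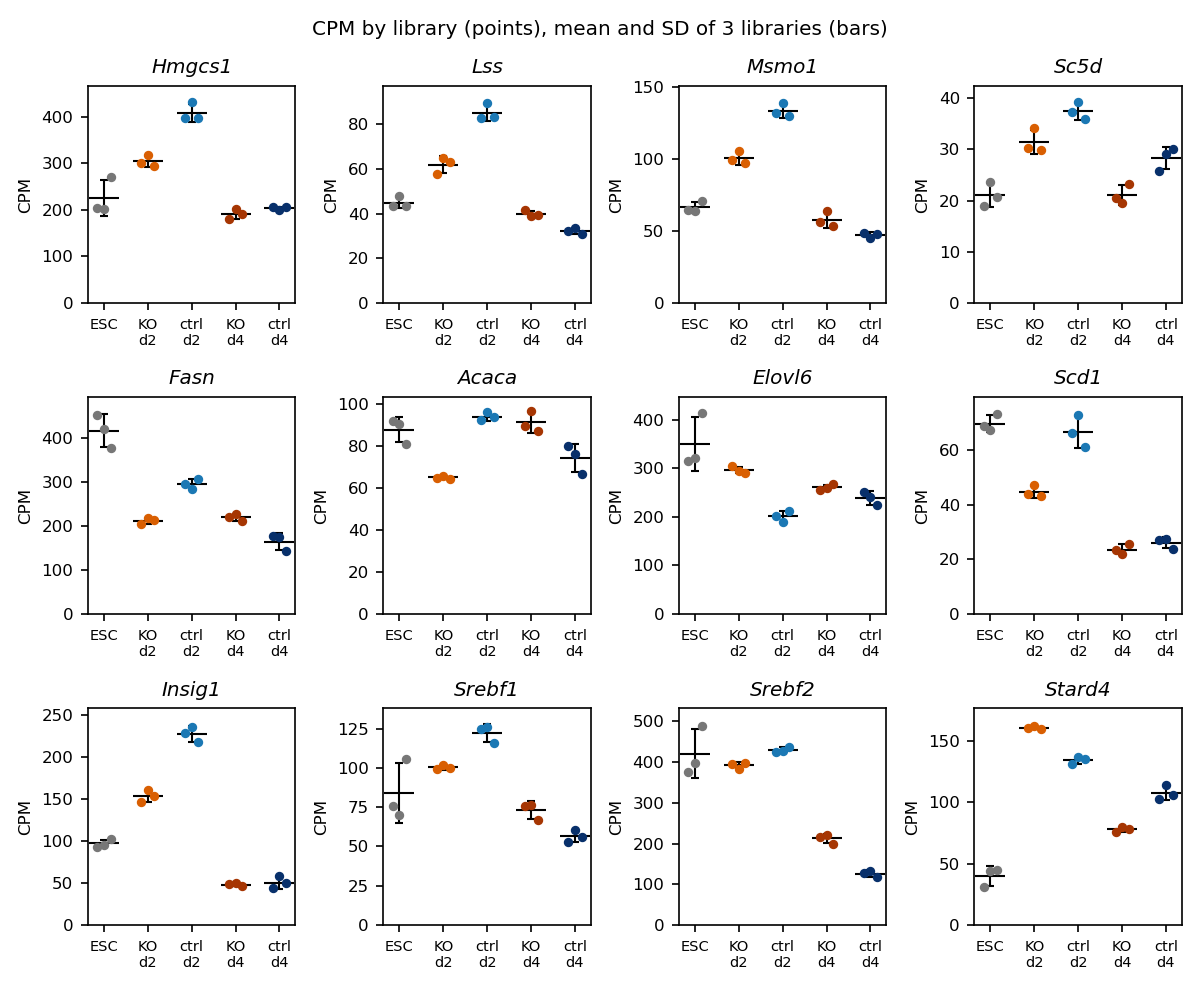
Levels in CPM of 12 of the genes in each library, grouped along the x axis as ESC, Atg7 KO and control on day 2, and Atg7 KO and control on day 4; points are libraries and bars give the mean and SD of 3. Lss, Fasn, Acaca and Srebf1 stand lower in KO than control cells on day 2 and higher on day 4, and Stard4 the reverse.

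Within the KO cells, all 18 sterol enzymes fell from day 2 to day 4 (63.2% of all tested genes were called, 32% as lower and 31.2% as higher), with a median of -0.65, where control cells gave -1.1. The call of Ebp (-0.37) was lost without KO day 4 replicate 1 (-0.28) and with the collagen score as a covariate (0.05), a fit in which 17 fell. Dhcr7 gave -1.66 ± 0.0615 in KO cells and -1.84 ± 0.0612 in control cells, and Cyp51 -0.74 ± 0.0602 in KO cells and -1.24 ± 0.0611 in control cells. The fatty acid genes differed more among themselves in KO cells: 5 fell, Acaca rose (0.49 ± 0.069, adjusted p = 1.27e-05), and Fasn and Elovl6 did not pass (0.05 ± 0.0768, adjusted p = 0.552, and -0.19 ± 0.0835, adjusted p = 0.0622). In the fit with the collagen score Elovl6 was called lower too (-0.50), which made 6 lower and 1 higher. Fasn had 205, 218 and 213 CPM in KO cells on day 2 and 220, 228 and 211 CPM on day 4, ranges that overlap, against 297, 284 and 307 CPM and 177, 175 and 143 CPM in control cells on the same days. That Fasn followed a different course in KO and control cells is what the difference of 0.90 between the days tests. Thrsp fell (-3.39 ± 0.361) to 6 to 11 counts per KO library on day 4. Against a 1.5-fold change, 15 of the 30 members were lower and 0 higher on day 4 than on day 2 in KO cells, where 23.3% of all genes passed in either direction. In control cells the same test gave 11 higher and 1 lower for day 2 against ESCs (33.6% of all genes), 23 lower and 0 higher for day 4 against day 2 (30.5%), and 12 lower and 1 higher for day 4 against ESCs (36.9%).

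Taken as lists, the sterol enzymes and the fatty acid genes were set apart on day 2 and closer together on day 4. The median over 18 sterol enzymes, relative to the ESC mean on the log2 scale, was 0.23 to 0.34 in day 2 KO libraries and 0.39 to 0.46 in day 2 control libraries, and for the 8 fatty acid genes it was -0.08 to -0.01 in day 2 KO libraries and 0.15 to 0.21 in day 2 control libraries. On day 4 the sterol median was -0.47 to -0.29 in KO and -0.5 to -0.44 in control libraries, and the fatty acid median was -0.47 to -0.41 in KO and -0.64 to -0.53 in control libraries. KO and control libraries overlapped for the sterol median on day 4 and in none of the other 3 pairs. Summed levels, which weigh abundant genes most, were for the sterol enzymes 1415, 1509 and 1421 CPM in KO and 1741, 1847 and 1698 CPM in control libraries on day 2. On day 4 they were 805.3, 852.9 and 817.1 CPM in KO and 788.4, 793.3 and 799.8 CPM in control libraries, against 1085, 1083 and 1161 CPM in ESC libraries. The fatty acid sums were 1977, 2005 and 1950 CPM in KO and 2106, 2223 and 2125 CPM in control libraries on day 2, and 1296, 1352 and 1305 CPM in KO and 1177, 1200 and 1082 CPM in control libraries on day 4, against 1848, 1806 and 1897 CPM in ESC libraries. These list values are descriptions without a test.

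**Figure D5:**
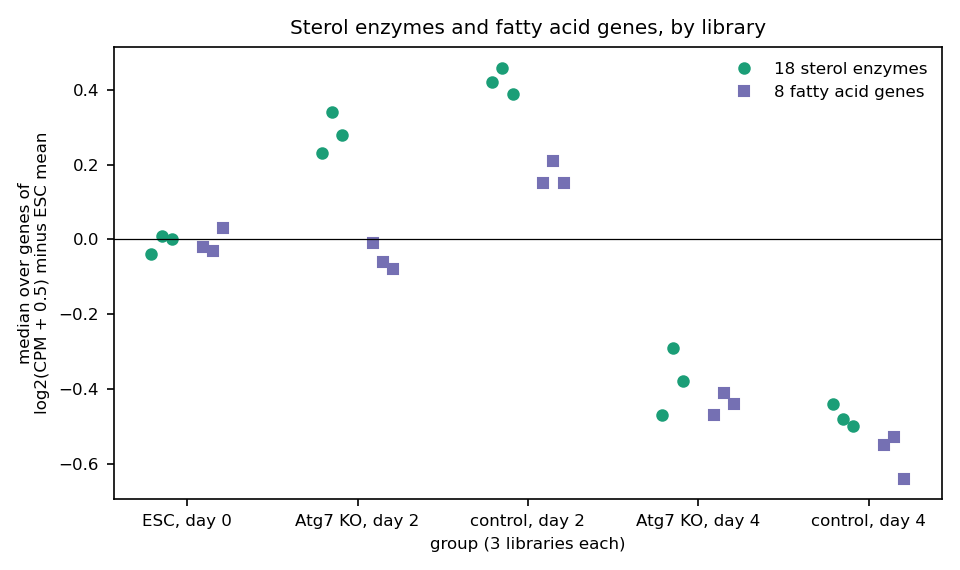
Median over 18 sterol enzymes (circles) and 8 fatty acid genes (squares) of log2(CPM + 0.5) minus the ESC mean, on the y axis, for each of the 15 libraries by group on the x axis. On day 2 the sterol circles lie above the fatty acid squares and the KO symbols below the control symbols, and on day 4 all symbols lie below 0.

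Other genes of sterol handling did not share the direction of the enzymes on day 2. In a list of 26, which holds further synthesis genes, receptors, transporters and SREBP processing genes, 8 were higher and 7 lower in KO cells (median -0.02), where 20.4% of all tested genes were higher and 21.4% lower. Npc1, which exports cholesterol from lysosomes and lies on chromosome 18, had 130, 103 and 114 CPM in KO cells, against 38.3, 38.8 and 42.7 CPM in control cells (1.53 ± 0.0838, adjusted p = 7.63e-09). Mbtps2, a protease that helps release active SREBP, was higher by 0.61 ± 0.0767 and Dhdds, of dolichol synthesis, by 0.56 ± 0.0856. Scarb1, a receptor for HDL, was lower (-0.39 ± 0.057, adjusted p = 6.89e-05). On day 4, 9 of the 26 were higher and 5 lower (median 0.1), against 19.5% and 18.1% of all tested genes. Scap, the escort of SREBP, had 121, 122 and 109 CPM in KO cells, against 84, 84.8 and 87.7 CPM in control cells (0.46 ± 0.0709, adjusted p = 0.000114), whereas on day 2 it had 87.5, 92 and 93.1 CPM in KO cells, against 123, 129 and 118 CPM in control cells (-0.44 ± 0.0698, adjusted p = 0.000127). The order of its groups was reversed between the days, like that of Srebf1. Abca1, which exports cholesterol from cells, was higher on day 4 (0.76 ± 0.131, adjusted p = 0.000271) and on day 2 (0.71 ± 0.128, adjusted p = 0.000369). Mylip, a ubiquitin ligase of lipoprotein receptors, Soat1, which esterifies cholesterol, and Lbr, a sterol reductase of the nuclear envelope, were lower on day 4, with log2 fold changes of -0.54, -0.48 and -0.29.

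Other genes of fatty acid and triglyceride metabolism were more often lower than higher in KO cells on day 2. In a list of 29, 15 were lower and 5 higher on that day (median -0.23), where 41.8% of all tested genes were called. On day 4, 4 were lower and 5 higher (median 0.05), where 37.6% of all tested genes were called. Mlxipl, which encodes the glucose-responsive factor ChREBP, had 21.6, 25 and 22.6 CPM in KO cells, against 50.8, 55.7 and 50.9 CPM in control cells on day 2 (-1.19 ± 0.115, adjusted p = 1.32e-06). It was lower on day 4 as well, with 7.65, 7.38 and 6.26 CPM in KO cells, against 13.4, 11.1 and 15.2 CPM in control cells (-0.90 ± 0.137, adjusted p = 9e-05). Dgat2, of triglyceride synthesis, and Elovl1, an elongase of very long chains, were lower on day 2, with log2 fold changes of -0.83 and -0.66. Fads2 (a desaturase of polyunsaturated chains), Tecr (a reductase of chain elongation) and Oxsm (of mitochondrial fatty acid synthesis) were higher on day 2 by 0.37, 0.24 and 0.70. Mid1ip1, a paralogue of Thrsp that activates acetyl-CoA carboxylase, had 32.4, 31.8 and 32.6 CPM in KO cells, against 18.2, 15.2 and 17.5 CPM in control cells on day 4 (0.92 ± 0.0944, adjusted p = 2.28e-06). On day 2 it had 24.2, 26.1 and 25.1 CPM in KO cells, against 34.3, 34.2 and 36.1 CPM in control cells (-0.47 ± 0.0891, adjusted p = 0.000575), and its difference between the days was 1.39 ± 0.13 (adjusted p = 1.63e-06). Its groups were thus in opposite order on the 2 days, as were those of Fasn and Acaca. Elovl7, an elongase, and Fads1, a desaturase, were higher on day 4 by 1.04 and 0.48, and Hacd3 (a dehydratase of elongation) and Elovl5 (an elongase) were lower, with log2 fold changes of -0.36 and -0.30.

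Reads of some members can also match other genes, and the sources used here do not say how such reads were counted. Windows of 50 bases were taken from the longest protein-coding GENCODE M21 transcript of each gene. For Fdps, 86.4% of them also occur in transcripts of other genes, most of them predicted ones. The share was 52.6% for Acaca (all with Gm5182), 45.9% for Acat2 (with Acat3 and Tcp1), 30.7% for Fdft1, 30.5% for Idi1 and 13.6% for Hmgcs1. It was 7.43% for Acss2, 4.66% for Scd1, 4.59% for Elovl6, 4.35% for Lss, 4.01% for Scd2, 3.17% for Cyp51, 2.49% for Insig1, 1.41% for Srebf1 and 0.422% for Sc5d. The levels of these genes are uncertain for that reason, by an amount that these shares do not give. The other members, Fasn, Dhcr7, Msmo1, Sqle, Srebf2 and Stard4 among them, had 0%.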

How the data were processed

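Raw read counts by gene symbol were used as the authors deposited them, with a separate table for each of 15 libraries of polyadenylated RNA. Groups and replicate numbers came from the sample titles. The builds mm10 and GRCm38 and the tools STAR, StringTie, featureCounts and DESeq2 are named per the submitters' processing notes. Tool versions, gene annotation, strand setting and the handling of multi-mapped reads were not given in the sources used here.

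Of 24982 symbols, edgeR's filterByExpr over the 5 groups (minimum count 10, minimum total 15) kept 15696 and removed 9286. The quasi-likelihood test of edgeR 4.0.16 (R 4.3.3) was run with TMM factors and 1 mean per group over all 15 libraries. Benjamini-Hochberg adjustment covered all 15696 genes, and the threshold was 0.05. The 7 comparisons were KO against control on each day, the difference of these 2, KO day 4 against KO day 2, and in control cells day 2 against ESCs, day 4 against day 2 and day 4 against ESCs. The SE was taken from the fold change and the test statistic. Replicates of a group differed by more than sampling noise (chi-square per degree of freedom of at least 3.36), and each was counted as 1 sample. ESC replicate 3 was at 34.2 against ESC replicate 1 and at 26 against ESC replicate 2, while no other pair exceeded 7.5. These values do not show whether replicates were separate cultures. Total counts of 14059237 to 23371546 per library limit the precision of low genes such as Thrsp. The fit was tested on simulated counts.

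The 30 members, the gene lists and the markers were chosen with earlier results of these data known. The genes named are the 30 members, Atg7, and up to 3 higher and 3 lower genes with the smallest p per day from each of the lists of 26 other sterol and 29 other fatty acid genes. Values of Scap, Abca1, Mlxipl and Mid1ip1 on the other day, and marker genes named singly, were added after the values were seen. Some genes that this rule selects are not reported here. Coordinates of genes are from GENCODE M21 on GRCm38, and promoters from RefSeq on GRCm38.p6.

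The alternatives were scaling by upper quartile or RLE factors, a filter of 10 CPM in 3 libraries or none, a test against a 1.5-fold change, DESeq2 1.42.0, the replicate number as a block, the collagen score as a covariate, only the groups compared, leaving out the 2 libraries named for their collagen score (13 kept), and leaving out each library in turn.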

Additional observations from a re-analysis of the deposited data

Results flagged for a closer look

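For 16 of the 30 genes the difference between Atg7 KO and control cells was not the same on day 4 as on day 2, by the direct test of day 4 minus day 2 (edgeR's quasi-likelihood test, adjusted p under 0.05). The difference in log2 fold change was higher on day 4 for Hsd17b7 by 0.59, Cyp51 by 0.50, Mvk by 0.66, Msmo1 by 0.70, Lss by 0.77, Hmgcs1 by 0.34 and Sqle by 0.32 among the sterol enzymes. Among the fatty acid genes it was higher for Acaca by 0.83, Acly by 0.40, Fasn by 0.90 and Scd1 by 0.43, and lower for Elovl6, at -0.43. Among the regulators it was higher for Insig1 by 0.49, Srebf1 by 0.66 and Srebf2 by 0.88, and lower for Stard4, at -0.73. The 2 days use separate KO and control libraries.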

How the results depend on the processing

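DESeq2, scaling by upper quartile or RLE factors, and dropping the filter moved no count of sterol enzymes or fatty acid genes past the test by over 1.5 times. The test against a 1.5-fold change moved the most, by its construction. For KO against control on day 2 it left 0 sterol enzymes lower, 0 fatty acid genes lower and 0 higher, and on day 4 it left 0 sterol enzymes lower, 0 higher and 0 fatty acid genes higher. For the difference between the days it left 0 sterol enzymes higher, 0 fatty acid genes lower and 1 higher. For control day 2 against ESCs it left 0 sterol enzymes lower and 7 higher, and 1 fatty acid gene lower and 2 higher. For control day 4 against day 2 it left 0 fatty acid genes higher, and against ESCs 7 sterol enzymes lower and 0 higher, and 3 fatty acid genes lower and 0 higher. For KO day 4 against KO day 2 it left 8 sterol enzymes lower and 0 fatty acid genes higher.

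With the collagen score as a covariate, 0 fatty acid genes were higher in control day 4 than day 2, and 0 sterol enzymes were higher in control day 4 than in ESCs. The stricter filter added 1 lower fatty acid gene, Acss2, to KO against control on day 4, and a fit of only the groups compared added 1 higher sterol enzyme, Ebp, on day 2. Leaving out 1 library gave 6 to 13 lower and 0 to 1 higher sterol enzymes in KO cells on day 2, 2 to 4 lower sterol enzymes on day 4, and 0 to 1 higher fatty acid genes for control day 4 against day 2. The cause was not tested.

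The following values of members turned sign. With the collagen score as a covariate, Ebp was at -0.02 for KO against control on day 2, 0.13 for control day 2 against ESCs, 0.21 for control day 4 against day 2, 0.34 for control day 4 against ESCs and 0.05 for KO day 4 against KO day 2. In the same fit Srebf2 was at 0.05 for KO against control on day 2 and -0.22 for control day 2 against ESCs, and Elovl6 at -0.08 for control day 4 against day 2. Without 1 library, Srebf2 lay between -0.05 and 0.16 for control day 2 against ESCs. Hmgcs1 lay between -0.23 and 0.00 for control day 4 against ESCs, and at 0.00 without ESC replicate 3 and KO day 2 replicate 2 together. Values near 0 that passed the test in no setting had ranges across 0 as well, among them Tm7sf2 and Thrsp for KO against control on day 2, Hmgcs1, Idi1, Fdps, Fdft1, Ebp, Scd2 and Insig1 on day 4, Pmvk and Mvd for the difference between the days, and Acat2 for control day 2 against ESCs. Of the calls of members, 12 of 19 for KO against control on day 2, 11 of 15 on day 4 and 15 of 16 for the difference between the days held in every refit without 1 library.

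Same-numbered libraries of 2 groups did not deviate together (correlations from -0.05 to 0.057), so the replicate numbers were not treated as pairs. With the replicate block, 11 sterol enzymes were lower in KO cells on day 2 and 11 were higher in control day 2 than in ESCs, and no other count of sterol enzymes or fatty acid genes changed.

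With 3 libraries a group, members with small shifts sat near the threshold. Thrsp, with 6 to 179 counts per library, had the widest errors. Fibroblast RNA differed between the groups, and its part in the members' values was examined with the collagen score alone. With 1 mean per group, the slope of that score rests on the spread within groups. The spread was widest among ESC libraries (5.87 to 8.93), against 2.9 to 3.12 among day 4 control libraries. The fibroblast part in KO against control was thus not tested on its own. Markers of naive ESCs and of EpiLCs differed between KO and control cells as well, and the part of that difference was not tested. The sources used here do not give how KO and control cultures were matched, so culture and genotype cannot be told apart.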
